A study of Homo sapiens with 4 samples.

Results

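The POU3F and SOXC neural transcription factors are 7 genes, POU3F1, POU3F2, POU3F3 and POU3F4 of the POU domain class III family and SOX4, SOX11 and SOX12 of the SOX group C family. Their rows were taken by gene symbol from the 26490 genes of a PAR-CLIP table for the RNA helicase DHX36, and all 7 were listed there. The members were chosen by name, with their crosslinked reads and NXPM in both PAR-CLIPs already known, so the values below are a description and no test was made of them.

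The table holds 2 PAR-CLIPs in HEK293, an established cell line of human embryonic kidney origin. For this method, cells incorporate 4-thiouridine into RNA, UV light of 365 nm crosslinks RNA to bound protein, and T-to-C conversions in the sequenced fragments mark the crosslinked sites. FH-DHX36 denotes cells with a stable transgene for HA-Flag-tagged DHX36 isoform 2, and FH-DHX36-E335A denotes cells with the tagged isoform 1 carrying the E335A substitution, which inactivates the helicase. Isoform and substitution therefore differed together between the cell lines and cannot be told apart. Both transgenes were under a tetracycline-inducible promoter and were induced for 15 h with 500 ng/ml tetracycline, so tagged protein was overexpressed. Both cell lines also kept the untagged DHX36 of HEK293, which the Flag immunoprecipitation does not select. Each cell line had 2 replicates, but the table gives 1 value per gene and cell line, so the spread between replicates could not be computed. The FH-DHX36 PAR-CLIP held 2160413 crosslinked reads in 16742 clusters and the FH-DHX36-E335A PAR-CLIP 8752127 reads in 60208 clusters. RPM, the reads of a gene per 1000000 crosslinked reads of its PAR-CLIP, were used to set the cell lines side by side. Intervals are 95% Wilson or exact binomial intervals and cover counting error only.

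DHX36, also named RHAU, unwinds G-quadruplexes, structures that form in RNA where several short runs of guanines lie close together, and it was first described as a helicase associated with AU-rich elements. POU3F proteins bind DNA through a POU-specific domain and a homeodomain, and SOXC proteins through an HMG box. Both families act in neural progenitors and young neurons, and POU3F2 (also BRN2) is one of the factors used to convert fibroblasts to neurons.

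The 7 mRNAs share a simple gene structure. Each was annotated as 1 exon on GRCh37, a structure held by 4.70% of 17900 genes with a canonical coding transcript. The coding sequence (CDS) of 6 of them was between 68.0% GC in SOX11 and 74.3% GC in POU3F1, and that of POU3F4 was 59.5% GC, against a median of 52.7% over all genes. Their 3′ UTRs ranged from 1559 nt in POU3F1 to 7338 nt in SOX11, all longer than the median of 1079 nt. The 3′ UTRs were less alike in composition, from 36.1% GC in POU3F2 through 41.8% in SOX4 and 48.1% in POU3F3 to 57.2% in SOX12, with a median of 42.2% over all genes. The gene bodies lie at chr6:99282450-99287334 for POU3F2, chr2:105470573-105475032 for POU3F3, chr6:21593982-21598850 for SOX4 and chr20:306196-310868 for SOX12, all on the plus strand.

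Guanine-run sequences of the mRNAs are shown first, since DHX36 is known for binding such RNA. A G-run match was counted on the sense strand where at least 4 runs of G were separated by 1 to 7 nt of any base, and a long run could serve as more than 1 of the 4. With runs of at least 3 G, matches included the following stretches of POU3F3, SOX4 and SOX12, which had clusters, printed 5′ to 3′ as DNA with runs of at least 3 G in capitals.
POU3F3, 3′ UTR, chr2:105474381-105474407, plus strand: GGGtcgcGGGcGGGcGGGcgaactGGG
SOX4, 3′ UTR, chr6:21596205-21596224, plus strand: GGGagaaGGGccGGGGGGGG
SOX12, CDS, chr20:306582-306610, plus strand: GGGGcgcgaGGGccaagcGGGacggcGGG
SOX12, CDS, chr20:307021-307043, plus strand: GGGaGGGcctttGGGGGGcGGGG
These stretches are not all the matches of the members. POU3F2 held 1 in its CDS, whose sequence is not shown here, and POU3F3 held 1 in its 5′ UTR that is too long to print here. The SOX4 stretch starts 15 nt after the stop codon, and the first SOX12 stretch at position 14 of the CDS. A match with 3 G per run was present in 14.3% of all 3′ UTRs, 6.30% of all CDS and 6.82% of all 5′ UTRs.

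The mRNAs without a cluster held such sequences too. They are shown because they carry the same pattern as the mRNAs above, again with runs of at least 3 G in capitals.
POU3F1, 3′ UTR, chr1:38509932-38509959, minus strand: GGGatgcGGGatgccaGGGGaggccGGG
POU3F4, 3′ UTR, chrX:82765819-82765844, plus strand: GGGGaGGGGtggcgaGGGagtGGGGG
SOX11, 3′ UTR, chr2:5834578-5834598, plus strand: GGGGGcGGGGcGGGGGaGGGG
SOX11, which promotes neuronal maturation, had 6 matches of this pattern in its 3′ UTR and 2 in its 5′ UTR, and POU3F4, a factor of the developing inner ear and forebrain, had 2 in its 3′ UTR. Among 3′ UTRs of like length, 17.4% held this pattern for POU3F1, 20.6% for POU3F4 and 29.9% for SOX11. On the opposite strand, their 3′ UTRs held 3, 1 and 1 in that order. A match is a description of the letters and not a binding site, and the table gives no cluster positions against which it could be set.

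With runs of at least 2 G, the pattern that allows the weaker 2-layered structures, all 7 mRNAs held matches, 60 in their CDS and 46 in their 3′ UTRs. POU3F2 had 7 in its CDS but 1 in its 3′ UTR, where 3′ UTRs within 20% of its length had a median of 4 and 87.5% of them held at least 1. SOX12 had 9 in its CDS and 8 in its 3′ UTR, against medians of 2 and 4 for regions of like length. SOX4 had 6 in its CDS and 8 in its 3′ UTR, against a median of 3 for each. POU3F3 had 9 in its CDS and 4 in its 3′ UTR, against medians of 3 and 2. On the opposite strand, the same search found 1 match in the 3′ UTR of POU3F2, 2 in that of POU3F3, 7 in that of SOX4 and 21 in that of SOX12. In the CDS it found 7 for POU3F2, 10 for POU3F3, 10 for SOX4 and 6 for SOX12. The CDS counts of POU3F2, POU3F3 and SOX4 were thus no higher than those of the opposite strand. The single POU3F2 match and 1 of the SOX12 matches are shown with runs of at least 2 G in capitals, since the 3′ UTRs of these genes differed most between the cell lines.
POU3F2, 3′ UTR, chr6:99285027-99285044, plus strand: GGGGGaGGttatGGaGGG
SOX12, 3′ UTR, chr20:308068-308093, plus strand: GGGGaGGaGGGGGctGGtcccagcGG

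**Figure D1:**
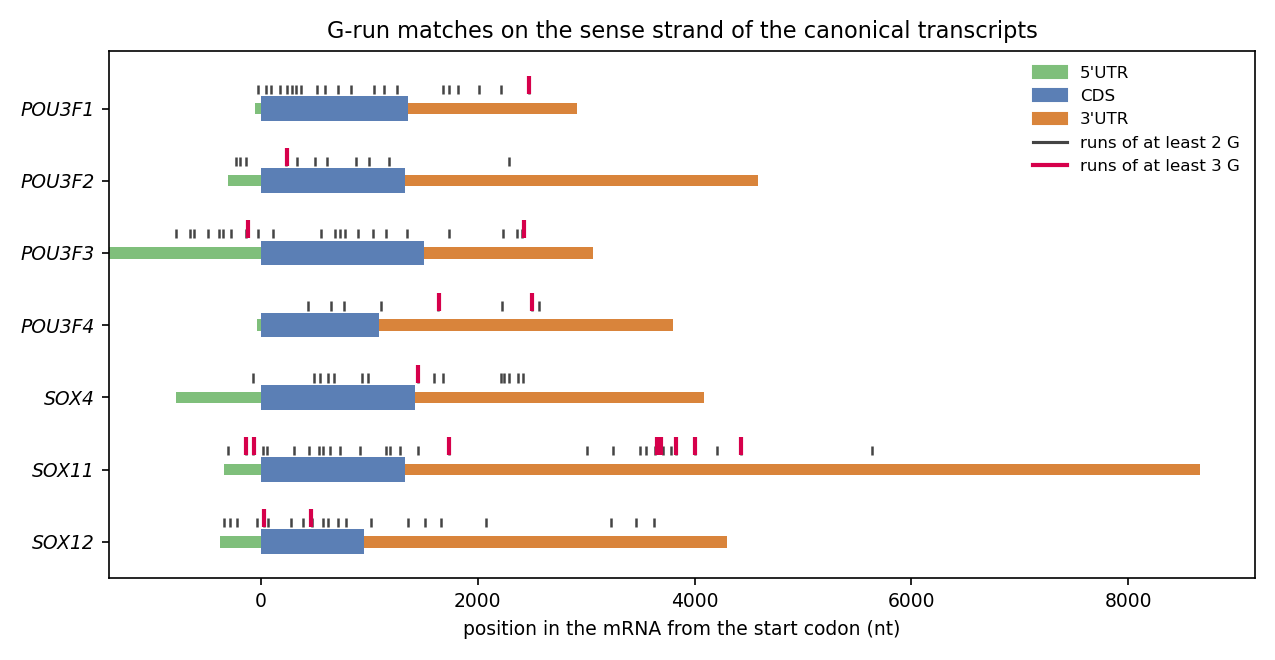
Map of the 7 canonical mRNAs by position from the start codon in nt, with the 5′ UTR, CDS and 3′ UTR drawn to scale and each G-run match marked above its mRNA (dark marks, runs of at least 2 G; red marks, runs of at least 3 G). The 3′ UTR of POU3F2 carries 1 mark over 3253 nt, while its CDS carries 7 of the dark marks over 1332 nt.

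The pentamer ATTTA, the core of AU-rich elements, was counted in the 3′ UTRs after the read values had been seen. POU3F2 held 10, POU3F3 held 3, SOX4 held 4 and SOX12 held 0. Of the 1915 3′ UTRs within 20% of the length of SOX12, 96.8% held at least 1, with a median of 7. For the other 3′ UTRs, the medians at like length were 7 for POU3F2, 3 for POU3F3 and 5 for SOX4. At least 1 was held by 96.7%, 86.4% and 94.8% of those 3′ UTRs. ATTTA was present in 67.9% of all 3′ UTRs. On the opposite strand the counts were 14, 2, 7 and 0 in the same order. In each 3′ UTR, a 30 nt window was chosen for its ATTTA count and A and T content. With FH-DHX36-E335A, POU3F3 had more reads than SOX12, 1653 against 1165. The window is shown for the 3 members with the most FH-DHX36 reads, with ATTTA in capitals.
POU3F2, 3′ UTR, chr6:99287189-99287218, plus strand: ATTTAgtagattattatttttaataATTTA
SOX4, 3′ UTR, chr6:21597824-21597853, plus strand: agttttaacttttaattttttatATTTAaa
SOX12, 3′ UTR, chr20:309160-309189, plus strand: tattttttttttttttttttttaagaaaaa
SOX12 thus had an A- and T-rich stretch of 96.7% A or T, but without the pentamer. Among the mRNAs without a cluster, POU3F1 held 7, POU3F4 held 4 and SOX11 held 19 of the pentamers. Whether these mRNAs were expressed in HEK293 cannot be told from the values used here.

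DHX36 was crosslinked to the same 4 of the 7 mRNAs in both cell lines, POU3F2, POU3F3, SOX4 and SOX12. Of all 26490 genes, 34.5% had at least 1 FH-DHX36-E335A cluster, 22.4% at least 1 FH-DHX36 cluster and 21.4% at least 1 of each. Among the 843 listed genes of 1 exon, 16.3% had an FH-DHX36-E335A cluster and 10.9% an FH-DHX36 cluster. POU3F1, a factor of myelinating cells, POU3F4 and SOX11 had 0 clusters and 0 reads in both. The table lists reads only for genes with a cluster, the lowest with 5 reads for FH-DHX36-E335A and 6 for FH-DHX36, and RNA abundance can be recovered from it only for those genes. An mRNA that was not expressed in HEK293 and one that was expressed but not crosslinked therefore cannot be told apart for these 3 genes. A lncRNA annotated on the same strand also overlaps 5166 nt of SOX11, and another overlaps 832 nt of POU3F4. Whether reads were assigned to these lncRNAs was not tested.

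POU3F2 was the member with the most crosslinked reads for FH-DHX36-E335A. It had 10990 reads in 22 clusters with FH-DHX36-E335A and 246 reads in 1 cluster with FH-DHX36. These were 1256 RPM (1232 to 1279) and 114 RPM (100.5 to 129). The share was 11.0-fold higher with FH-DHX36-E335A (9.72 to 12.6), a log2 ratio of 3.46. A cluster was listed in both PAR-CLIPs for 5669 genes, and 82 of them had a higher ratio. This ratio is scaled by the total of each PAR-CLIP, of which that of FH-DHX36-E335A was 4.05-fold greater. It still counts only reads of called clusters, and the number of clusters that could be called can depend on depth. Depth may therefore not be fully removed from the ratio.

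The reads of POU3F2 lay in the 3′ UTR. With FH-DHX36-E335A, 15 of its clusters and 10452 reads were in the 3′ UTR, 4 clusters with 297 reads in the CDS, 2 clusters with 162 reads in the 5′ UTR, and 1 cluster with 79 reads in another annotation. The 3′ UTR thus held 95.8% of its exonic reads (95.4% to 96.2%). The single FH-DHX36 cluster was also in the 3′ UTR. With runs of at least 2 G separated by 1 to 7 nt, POU3F2 had 7 matches in its CDS and 1 in its 3′ UTR. With up to 12 nt between runs, these counts were 10 and 6. Among 3′ UTRs alone, the share of reads was 10.5-fold higher with FH-DHX36-E335A (9.24 to 11.95). Per length, the 3′ UTR of POU3F2 had 367 RPM per kb with FH-DHX36-E335A, rank 147 of the 6808 genes with a 3′ UTR cluster, which had a median of 14.6. Each of its 3′ UTR clusters held 697 reads on average. Over all its FH-DHX36-E335A clusters the mean was 499.5 reads, against a median of 65.8 reads per cluster over genes. The 3′ UTR held 4.61 clusters per kb, above 83.3% of the same 6808 genes, which had a median of 1.93.

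POU3F3 (also BRN1), a factor of cortical and kidney development, had the fewest FH-DHX36 reads of the 4 members with clusters and differed in the same direction. It had 1653 reads in 8 clusters with FH-DHX36-E335A, 189 RPM (180 to 198), and 86 reads in 2 clusters with FH-DHX36, 39.8 RPM (32.2 to 49.2). The share was 4.74-fold higher with FH-DHX36-E335A (3.82 to 5.96), a log2 ratio of 2.25, and 467 genes had a higher ratio. All 8 FH-DHX36-E335A clusters were in the 3′ UTR. With FH-DHX36, 1 cluster of 41 reads was in the CDS and 1 of 45 reads in the 3′ UTR. The only CDS cluster of POU3F3 was thus seen in the PAR-CLIP with fewer reads, and the 3′ UTR share taken alone was 9.07-fold higher with FH-DHX36-E335A (6.75 to 12.5). A lncRNA annotated on the same strand overlaps all 4460 nt of POU3F3, and reads of the 2 transcripts cannot be told apart.

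SOX4, a factor that promotes neuronal differentiation, had more evenly matched shares. It had 7720 reads in 26 clusters with FH-DHX36-E335A and 1230 reads in 11 clusters with FH-DHX36, 882 RPM (863 to 902) and 569 RPM (538 to 602). The share was 1.55-fold higher with FH-DHX36-E335A (1.46 to 1.65), a log2 ratio of 0.63. The median was 0.12 over the 5669 genes and 0.47 over the 89 genes of 1 exon among them. The direction of SOX4 turned with clusters in place of reads, where its log2 ratio was -0.61. The regions of SOX4 differed in opposite directions. In the CDS, 706 FH-DHX36-E335A reads and 590 FH-DHX36 reads made a share 3.39-fold higher with FH-DHX36 (3.03 to 3.78). In the 3′ UTR, 6072 FH-DHX36-E335A reads and 561 FH-DHX36 reads made a share 2.67-fold higher with FH-DHX36-E335A (2.45 to 2.92). The 5′ UTR, with 329 FH-DHX36-E335A reads and 79 FH-DHX36 reads, had a ratio of 1.03 (0.802 to 1.33), whose interval includes equal shares. A further 613 FH-DHX36-E335A reads in 2 clusters lay in another annotation, with 0 such reads for FH-DHX36. On exonic reads alone the log2 ratio of SOX4 was 0.53. Within SOX4 itself, the 3′ UTR had 8.60 times the reads of the CDS with FH-DHX36-E335A and 0.951 times with FH-DHX36. This ratio is not scaled by the total of either PAR-CLIP, but it counts reads of called clusters, of which SOX4 had 16 in the 3′ UTR with FH-DHX36-E335A against 4 with FH-DHX36, and 5 in the CDS with each.

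SOX12, the third SOXC gene, differed the other way from the POU3F genes. It had 3045 reads in 9 clusters with FH-DHX36 and 1165 reads in 6 clusters with FH-DHX36-E335A, so it had more reads in the PAR-CLIP with fewer reads, as did 10.7% of the 5669 genes. The shares were 1409 RPM (1360 to 1460) and 133 RPM (126 to 141), 10.6-fold higher with FH-DHX36 (9.89 to 11.3). Its log2 ratio was -3.40, and 148 genes lay further in this direction. The 3′ UTR had 2521 FH-DHX36 reads and 742 FH-DHX36-E335A reads, a share 13.8-fold higher with FH-DHX36 (12.7 to 15.0). The CDS had 524 and 318 reads, a share 6.68-fold higher with FH-DHX36 (5.80 to 7.70). The 5′ UTR had 105 FH-DHX36-E335A reads and 0 FH-DHX36 reads. SOX12 was therefore more crosslinked with FH-DHX36 in both regions that had reads in both PAR-CLIPs. An antisense lncRNA, NRSN2-AS1, overlaps all 4673 nt of SOX12 on the opposite strand, as another lncRNA does for 1843 nt of SOX4, and the sources used here do not say whether strand was used in counting.

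**Figure D2:**
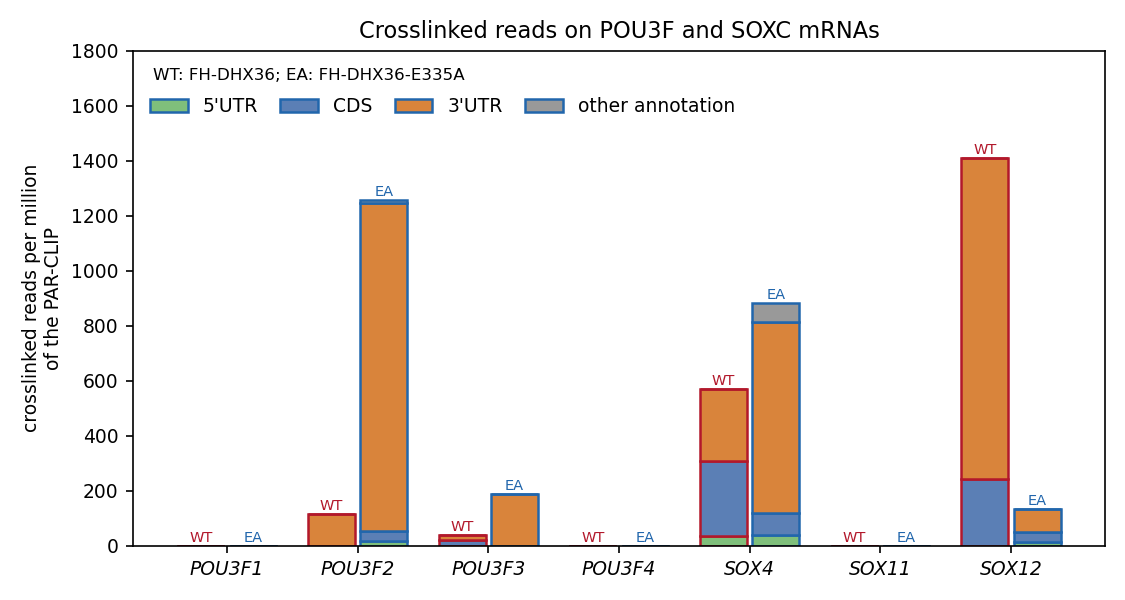
Crosslinked reads of each member in RPM (y axis), stacked by region, for FH-DHX36 (WT, red outline) and FH-DHX36-E335A (EA, blue outline). POU3F2 stands at 114 and 1256, POU3F3 at 39.8 and 189, SOX4 at 569 and 882, SOX12 at 1409 and 133, and POU3F1, POU3F4 and SOX11 at 0.

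Of all 5669 genes with clusters in both PAR-CLIPs, 28.6% had a share more than 2-fold higher with FH-DHX36-E335A and 24.8% a share more than 2-fold higher with FH-DHX36. Of the 4 members, POU3F2 and POU3F3 passed 2-fold toward FH-DHX36-E335A, SOX12 toward FH-DHX36, and SOX4 neither. With clusters in place of reads, POU3F3 had a log2 ratio of 0.15 and no longer passed 2-fold, while SOX4 stood at -0.61. The POU3F genes together took 1445 RPM with FH-DHX36-E335A against 154 with FH-DHX36, while the SOXC genes took 1015 and 1979. Each larger sum came mostly from 1 gene, POU3F2 with 1256 RPM and SOX12 with 1409. SOX4, the other SOXC gene with clusters, differed in the direction of the POU3F genes, with 882 and 569. The opposite directions of SOX12 and the other members with clusters left the sum over the members close. It was 2460 RPM (2427 to 2493) with FH-DHX36-E335A and 2132 (2072 to 2195) with FH-DHX36. Without POU3F2 the FH-DHX36-E335A sum was 1204 RPM, and without SOX12 the FH-DHX36 sum was 723.

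**Figure D3:**
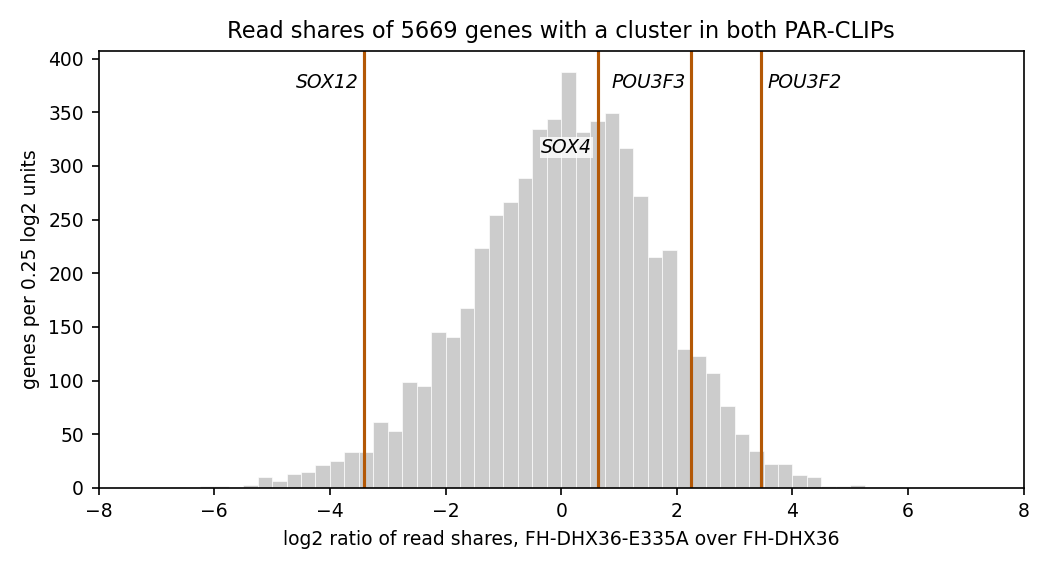
Histogram of the log2 ratio of read shares, FH-DHX36-E335A over FH-DHX36 (x axis), for the 5669 genes whose RNA had clusters in each of the PAR-CLIPs, with the y axis giving genes per bar and vertical lines at the 4 members. SOX12 at -3.40 and POU3F2 at 3.46 lie in opposite tails, POU3F3 at 2.25 lies toward the right tail, and SOX4 at 0.63 lies near the median of 0.12.

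Set per length, the order of the members differed between the cell lines. In the 3′ UTR with FH-DHX36-E335A, POU3F2 had 367 RPM per kb, SOX4 261, POU3F3 121 and SOX12 25.3. With FH-DHX36, SOX12 had 348 RPM per kb, SOX4 97.6, POU3F2 35.0 and POU3F3 13.3, against a median of 25.5 over 2962 genes with a 3′ UTR cluster. SOX12 thus changed from the first to the last place, and SOX4 held the second in both. Whether neighbours in these orders differed beyond the spread between replicates could not be computed. In the CDS, SOX12 and SOX4 stood high in both PAR-CLIPs. With FH-DHX36, SOX12 had 256 and SOX4 192 RPM per kb of CDS, above 94.9% and 92.8% of the 2614 genes with a CDS cluster. With FH-DHX36-E335A, SOX4 had 56.6, SOX12 38.3 and POU3F2 25.5, above 91.7%, 87.1% and 79.4% of 5633 genes.

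The balance of 3′ UTR and CDS also differed among the members. With FH-DHX36-E335A, the read density in the 3′ UTR was 14.4 times that in the CDS for POU3F2 and 4.61 times for SOX4, but 0.660 times for SOX12. With FH-DHX36, it was 0.509 times for SOX4, 1.06 times for POU3F3 and 1.36 times for SOX12. Summed over the members, the 3′ UTR held 90.8% of exonic reads with FH-DHX36-E335A against 73.2% with FH-DHX36, and the CDS 6.34% and 25.1%. Over all genes the 3′ UTR held 71.9% and 51.4% and the CDS 22.9% and 38.0%. Without SOX12, the members had 54.5% of their exonic FH-DHX36 reads in the 3′ UTR and 40.4% in the CDS, and clusters in place of reads put 52.2% in the 3′ UTR. The members did not share 1 direction of this change. The 3′ UTR share of SOX4 was 45.6% with FH-DHX36 against 85.4% with FH-DHX36-E335A, while that of SOX12 was 82.8% and 63.7%. Among 2457 genes with at least 100 exonic reads in each PAR-CLIP, a comparison added after the values had been seen, the median change toward FH-DHX36-E335A was 5.74 percentage points. SOX4 changed by 39.8 points, with 2053 genes below it, POU3F2 by -4.21 points, with 460 below, and SOX12 by -19.1 points, with 139 below. No member had intron reads, since none has an intron.

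**Figure D4:**
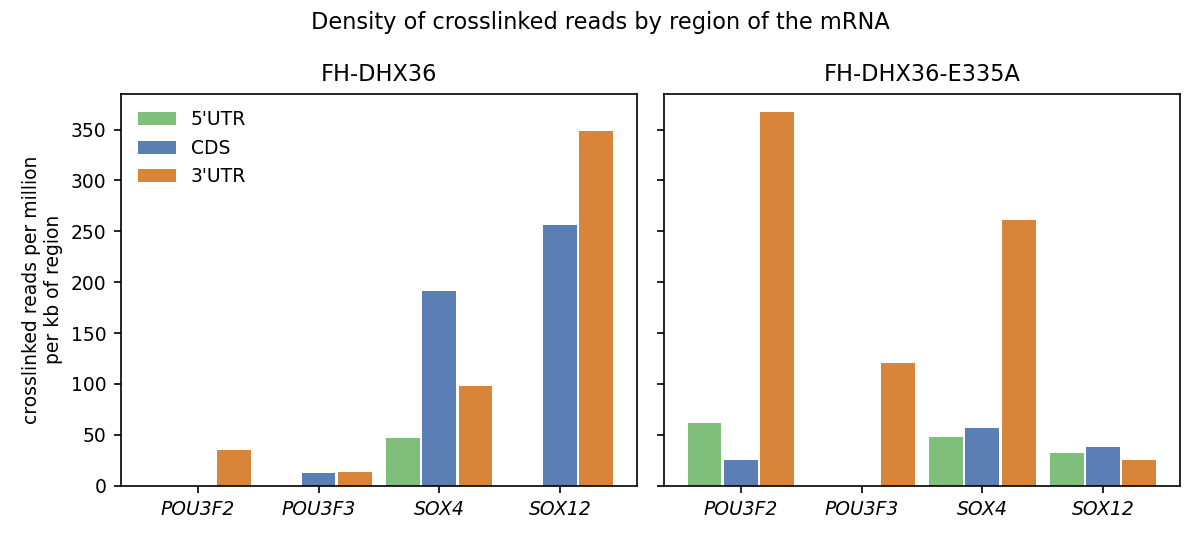
Crosslinked RPM per kb of each region (y axis) of the 4 members with clusters, in the FH-DHX36 (left) and FH-DHX36-E335A (right) PAR-CLIPs. The highest bar is the 3′ UTR of SOX12 at 348 on the left and the 3′ UTR of POU3F2 at 367 on the right, and for SOX4 the CDS is the higher bar on the left and the 3′ UTR on the right.

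NXPM divides the read share by the abundance of the RNA, and with FH-DHX36-E335A both POU3F mRNAs that had clusters ranked above both SOXC mRNAs. For POU3F2 it was 766 with FH-DHX36-E335A, rank 69 of 9131 genes, and 69.5 with FH-DHX36, rank 587 of 5930. Its FH-DHX36-E335A rank was 17 without the 59 genes whose recovered abundance was at or near 0. POU3F3 had 210 and 44.2, ranks 201 and 890. SOX4 had 84.4 and 54.5, ranks 579 and 734, although its reads ranked 139 and 368. SOX12 had 31.0 with FH-DHX36-E335A, rank 1573, and 328 with FH-DHX36, rank 102. The abundance recovered from the table, in the units of the RNA-seq behind it, was 0.899 for POU3F3, 1.64 for POU3F2, 4.30 for SOX12 and 10.5 for SOX4. The POU3F mRNAs were thus rare, above 8.52% and 16.9% of genes crosslinked to FH-DHX36-E335A, and SOX4 was above 64.7% of them. A regional NXPM is scaled to the reads of that region, and on that scale POU3F2 ranked 19 in the 3′ UTR with FH-DHX36-E335A (1367) and SOX12 ranked 41 in the 3′ UTR with FH-DHX36 (706). The recovered abundance was the same in both PAR-CLIPs, so a different level of a member's mRNA in the 2 cell lines and different crosslinking cannot be told apart for the ratios between them.

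The direction of the members was set beside the composition of their 3′ UTRs, a comparison made after the values had been seen. Across 5208 genes with clusters in both PAR-CLIPs, the log2 ratio of read shares had a Pearson's r of -0.370 and a Spearman's rho of -0.362 with 3′ UTR GC content. With CDS GC content they were -0.289 and -0.301, and with ATTTA per kb of 3′ UTR 0.208 and 0.257. The points are genes of the same 2 libraries and are not independent replicates. In CDS GC content, the members with clusters ranged from above 96.9% of all genes for POU3F2 to above 99.5% for POU3F3. Their ratios went in both directions, and the composition of the CDS was not separated from that of the 3′ UTR. POU3F2 lay in the second of 5 equal groups of genes by 3′ UTR GC content, from 34.4% to 38.9%, whose median log2 ratio was 0.69, against 3.46 for POU3F2. SOX4 lay in the third group, with a median of 0.32, against 0.63. POU3F3 lay in the fourth, with a median of -0.07, against 2.25, so its ratio was in the other direction from the median of genes of like composition. SOX12 lay in the last, above 52.7% GC, with a median of -0.95, against -3.40, and 27.0% of the genes there had a share higher with FH-DHX36-E335A. The part of base composition in the difference between the cell lines was not tested.

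**Figure D5:**
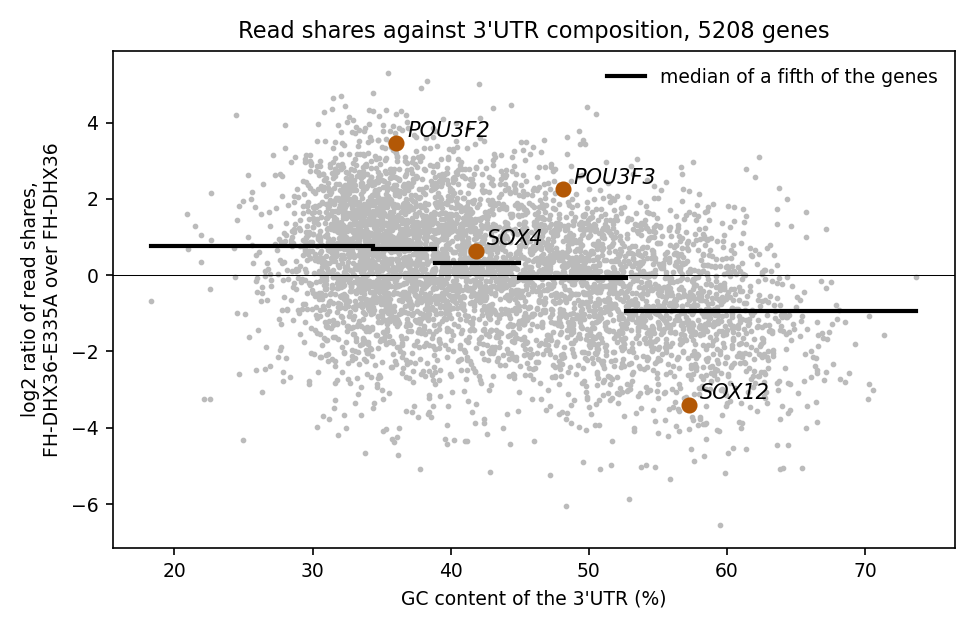
Log2 ratio of read shares, FH-DHX36-E335A over FH-DHX36 (y axis), against the GC content of the 3′ UTR in percent (x axis) for 5208 genes (grey points), with black bars at the median of each of 5 equal groups of the genes. The medians descend from 0.76 to -0.95, and of the members (brown points) POU3F2, SOX4 and POU3F3 lie above and SOX12 below the median of their group.

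The members of each family encode closely related DNA-binding domains. A search for identical stretches of 25 nt, added after the values had been seen, found 151 nt of POU3F2, 282 nt of the POU3F3 CDS, 89 nt of SOX4 and 97 nt of SOX12 in common with another member. These were 11.3%, 18.8%, 6.25% and 10.2% of the CDS. No 3′ UTR shared such a stretch with another member. The search did not cover shorter or mismatched stretches or genes other than the members, so shared mapping of the 3′ UTR reads was not tested. How the mapping treated reads with several places in the genome is not given in the sources used here.

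Other genes of these families, and a list of neural genes, were counted in the same way, to be read beside the 34.5% of all genes that had an FH-DHX36-E335A cluster and the 22.4% that had an FH-DHX36 cluster. Of the 12 other POU genes, 3 had a cluster with FH-DHX36-E335A against 2 with FH-DHX36. POU2F1, a widely expressed POU factor, had 2260 reads with FH-DHX36-E335A against 262 with FH-DHX36, a log2 ratio of 1.09. POU4F1, a factor of sensory neurons, had 991 and 305 reads, a log2 ratio of -0.32. Of the 16 other SOX genes, 6 had a cluster with FH-DHX36-E335A against 0 with FH-DHX36. Their highest was SOX2, a factor of neural stem cells, with 700 reads, all in the 3′ UTR, against 7720 reads for SOX4. Of 20 proneural factors, Notch pathway genes and neuronal genes, 7 had a cluster with FH-DHX36-E335A against 3 with FH-DHX36. The 3 with the most reads were REST, a repressor of neuronal genes in other tissues, with 1095 and 409 reads, HES1, a Notch-responsive repressor, with 991 and 158, and INSM1, a factor of neuroendocrine cells, with 618 and 59. Their log2 ratios were -0.60, 0.63 and 1.37, none as far from 0 as those of POU3F2, POU3F3 or SOX12. The ratio of SOX4, 0.63, was like that of HES1 and smaller than that of INSM1.

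Genes with the most similar split of reads over the regions were found by the sum of absolute differences of 8 shares (5′ UTR, CDS, 3′ UTR and intron in each PAR-CLIP) over 1768 genes with at least 1000 FH-DHX36-E335A and 100 FH-DHX36 reads. The nearest to POU3F2 were TRIM4 at 0.0169 and C19orf47 at 0.0226, against a median distance of 1.54. The nearest to SOX4 were SP1 at 0.179 and HOXA10 at 0.262, with a median of 1.39. The nearest to SOX12 were HKR1 at 0.192 and ZBTB21 at 0.214, with a median of 1.27. Their log2 ratios were 1.30 and -0.26, -0.02 and -0.13, and 1.67 and 2.23 in that order. TRIM4 alone of these 6 genes had a ratio on the same side of 0 as its member. POU3F3, with 86 FH-DHX36 reads, was below the minimum.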

How the data were processed

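PAR-CLIP was carried out by the authors in HEK293 cells with inducible FH-DHX36 or FH-DHX36-E335A, 2 replicates per cell line. The submitters' processing notes name bcl2fastq 2.17.1 and hg19. The paper's methods name PARalyzer inside PARpipe with default settings and GENCODE v19, and versions of the programs are not given in the sources used here. What was deposited is a table that gives counts of clusters and counts of crosslinked reads, per gene and annotation, without normalization and with 1 value per cell line. NXPM, a score deposited by the authors, sets the RPM of a gene over the abundance of its RNA, and the values fit an added constant of 0.001. Regional NXPM is scaled to the reads of the region.

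Abundance was recovered from reads and NXPM, and the code was tested on simulated data. Lengths and sequences were read from GRCh37 with canonical transcripts of GENCODE release 44, a later release than the authors' own. Symbols of 17920 genes matched. Analysis used Python 3.11.15, pandas 2.3.3, numpy 2.4.6, scipy 1.17.1 and matplotlib 3.10.9. No p-value was computed. Intervals are at the 95% level, and PCR copies are not independent molecules. Members and gene lists were chosen with earlier results of these data known. All members are named, at most the 3 genes with the most FH-DHX36-E335A reads of each list, and the 2 nearest genes in region split of members with at least 1000 FH-DHX36-E335A and 100 FH-DHX36 reads. One sequence is not reported here.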

Additional observations from a re-analysis of the deposited data

How the results depend on the processing

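Alternatives were other totals, clusters in place of reads, exonic reads alone, the longest transcript, other G-run patterns and the leaving out of 1 gene. Leaving out a replicate was not run, as the table has 1 value per cell line. No paired analysis was possible because 1 value stands for both replicates of a cell line. With clusters in place of reads, the log2 ratio became 2.61 for POU3F2, 0.15 for POU3F3 and -2.43 for SOX12, and that of SOX4 reversed to -0.61. That setting does not weigh a cluster by its reads, and the cause of the reversal was not tested. The CDS then held 39.1% of FH-DHX36 and 18.6% of FH-DHX36-E335A member clusters, and the 3′ UTR 52.2% and 71.2%. With exonic reads alone, the members took 2851 RPM with FH-DHX36 against 3212 with FH-DHX36-E335A, and the log2 ratio of SOX4 was 0.53. Over reads of every annotation, the 3′ UTR share with FH-DHX36-E335A was 87.9%. Without SOX12, the FH-DHX36 sum was 723 RPM with 40.4% of exonic reads in CDS and 54.5% in 3′ UTRs. Without POU3F2, the FH-DHX36-E335A sum was 1204 RPM with 10.3% and 85.3%. Without the 59 genes whose recovered abundance was at or near 0, POU3F2 ranked 17 by NXPM with FH-DHX36-E335A. Runs of at least 3 G left 3 matches in the CDS and 11 in the 3′ UTRs, and loops of up to 12 nt gave 70 in the 3′ UTRs. The other 26 of 48 alternative values moved by less than their intervals or, for counts and ranks, by less than 1.5 times. The FH-DHX36 PAR-CLIP had fewer reads, so a region with 0 reads there can be one whose cluster was not called at this depth.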
